A study of Mus musculus with 8 samples.

Results

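Expression of 9 secreted growth factor genes was examined in mesenchymal cells of the mouse large intestine: Hgf, Fgf2, Fgf7, Fgf10, Vegfa, Vegfc, Pdgfa, Kitl and Gdnf. They were taken by gene symbol from a named list, which was drawn up with earlier results of these data known, and all 9 were found among the 24346 genes listed in each of 8 RNA sequencing libraries. Per the labels, the sort kept cells with gp38 (podoplanin) and much PDGFRα on their surface and discarded those bearing Ly6C, CD31, EpCAM or CD45. The 6 TauGABA libraries are of the C57BL/6 strain with a treatment of 1 mM GABA together with 20 mM taurine, 3 of them at 6 h and 3 at 0 h, and the design text leaves unsaid whether cells or animals were treated. The genotype libraries came from untreated cells, 1 from a Foxl1cre; Cxcl12 flox/flox conditional knockout and 1 from a Cxcl12 flox/flox control, so both carried the floxed Cxcl12 gene. In the conditional knockout, Cre is driven from the Foxl1 gene, which marks mesenchymal cells under the gut epithelium. The labels state neither ages nor numbers of animals nor the source of each of the 3 replicates, so a p-value reflects the spread of these libraries alone, and that spread may be technical. No untreated 6 h library is among them, so time and treatment cannot be told apart.

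These factors are signals that mesenchyme sends to epithelium, vessels, nerves and itself. Hgf acts on the receptor Met of epithelial cells, and Fgf7 and Fgf10 act on an epithelial splice form of Fgfr2, while Fgf2 also acts on mesenchymal Fgfr1. Vegfa drives blood vessel growth through Kdr and Flt1, and Vegfc drives lymphatic growth through Flt4. Pdgfa is the ligand of Pdgfra, the receptor used in the sort. Kitl acts on Kit, carried by mast cells and the interstitial cells of Cajal, and Gdnf acts on the enteric nervous system through Gfra1 and Ret.

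The stretches of 250 bases before a RefSeq start site (GRCm38.p6) are shown for Hgf, Fgf7, Fgf10 and Vegfa. Hgf was the factor called in the time comparison. Fgf7 and Fgf10 are related ligands whose levels differed in opposite directions between the library sets. Vegfa was the factor of highest level in each of the 8 libraries. All stretches are written 5′ to 3′ on the strand of the gene, and capitals mark matches to the motifs described after them.
Hgf, chr5:16553245-16553494, plus strand: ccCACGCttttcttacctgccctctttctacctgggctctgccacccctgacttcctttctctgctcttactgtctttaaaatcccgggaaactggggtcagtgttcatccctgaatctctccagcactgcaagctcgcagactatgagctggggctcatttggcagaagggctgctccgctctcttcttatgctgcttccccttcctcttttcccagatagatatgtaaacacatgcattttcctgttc
Fgf7, chr2:126034408-126034657, plus strand: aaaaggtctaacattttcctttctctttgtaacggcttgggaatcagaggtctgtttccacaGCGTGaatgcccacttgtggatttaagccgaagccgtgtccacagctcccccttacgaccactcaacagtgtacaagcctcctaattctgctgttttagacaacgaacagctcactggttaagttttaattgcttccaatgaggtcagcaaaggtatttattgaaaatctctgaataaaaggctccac
Fgf10, chr13:118714449-118714698, plus strand: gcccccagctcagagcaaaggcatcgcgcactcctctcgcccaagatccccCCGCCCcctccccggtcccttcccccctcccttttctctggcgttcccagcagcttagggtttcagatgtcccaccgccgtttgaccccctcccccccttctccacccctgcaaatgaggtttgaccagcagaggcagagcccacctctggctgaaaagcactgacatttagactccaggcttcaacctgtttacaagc
Vegfa, chr17:46032378-46032627, minus strand: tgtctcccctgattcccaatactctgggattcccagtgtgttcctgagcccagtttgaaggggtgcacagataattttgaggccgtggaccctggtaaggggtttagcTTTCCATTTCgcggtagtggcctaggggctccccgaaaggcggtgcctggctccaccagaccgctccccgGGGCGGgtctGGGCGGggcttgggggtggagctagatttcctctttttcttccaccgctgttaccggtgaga
Motifs were searched on both strands. They were the GC box GGGCGG, the TATA box TATAAA, the AP-1 motif TGANTCA, the hypoxia response cores ACGTG and GCGTG, the ETS motif CCGGAA and an interferon-response pattern, in which GAAA is followed after any 2 bases by GAAA. The Hgf stretch held 1 match to GCGTG, found in 28.2% of the 32851 RefSeq windows of this length, and the Fgf7 stretch also held 1. The Fgf10 stretch held 1 GC box, found in 32.7% of windows. The Vegfa stretch held 2 GC boxes and 1 match to the interferon-response pattern, found in 3% of windows. No marked matches overlapped in these 4 stretches. RefSeq lists a second start site for Hgf and for Vegfa, whose stretches overlap annotated exons and are not printed. The second Hgf stretch held none of these motifs, and the second Vegfa stretch held 1 GC box and 1 match each to ACGTG, found in 16.6% of windows, and GCGTG. The share of G and C was 50.8% for Hgf, 43.6% for Fgf7, 61.2% for Fgf10 and 59.2% for Vegfa, against a median of 52.4% over all windows. The RefSeq start of Fgf10 lies inside the gene span of the GENCODE annotation used below. These matches describe the letters of each window only.

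At 6 h, Hgf was the 1 of the 9 factors called higher, and none was called lower. That call held in 5 of 14 fits. Of the 9 factors, 7 had a positive log2 difference and 2 a negative one, where 5399 of 10910 genes had a positive one. In the same limma test on log2(FPKM + 1), 60 of 10910 genes (0.55%) were called, 26 higher at 6 h (0.238%) and 34 lower (0.312%). An adjusted p under 0.05 was the threshold for a call. All 9 factors passed the filter of a mean of at least 1 FPKM over the 6 libraries, Gdnf narrowly at a mean of 1.13 FPKM. FPKM counts fragments relative to transcript length and to the mapped fragments of the library, so levels can be set side by side between genes. The 3 values at 6 h all lay above the 3 at 0 h for Hgf, Vegfa and Gdnf, a pattern seen in 7.25% of all genes tested. No factor had its 6 h values all below those at 0 h, a pattern seen in 8.01% of genes. The median log2 difference of the 9 factors was 0.12, against -0.0019 over all genes tested.

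In the genotype comparison none of the 9 factors was 2-fold higher in the conditional knockout library, where 1.36% of 14949 genes were. Fgf2 was the 1 factor at least 2-fold lower, where 2.22% of genes were. Its level was low, at 2.3 FPKM in the conditional knockout and 5.77 FPKM in the control. The ratio of Fgf2 was shared by 430 other genes, within a relative tolerance of 0.0005. With 1 library per genotype there is no test and no replicate check of any of these differences. Hgf, Fgf7, Vegfa and Vegfc had ratios of 1.24 to 1.37 in FPKM, Fgf10, Pdgfa, Kitl and Gdnf of 0.898 to 1.07. Over all genes 55% were higher in the conditional knockout library by some amount.

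**Figure D1:**
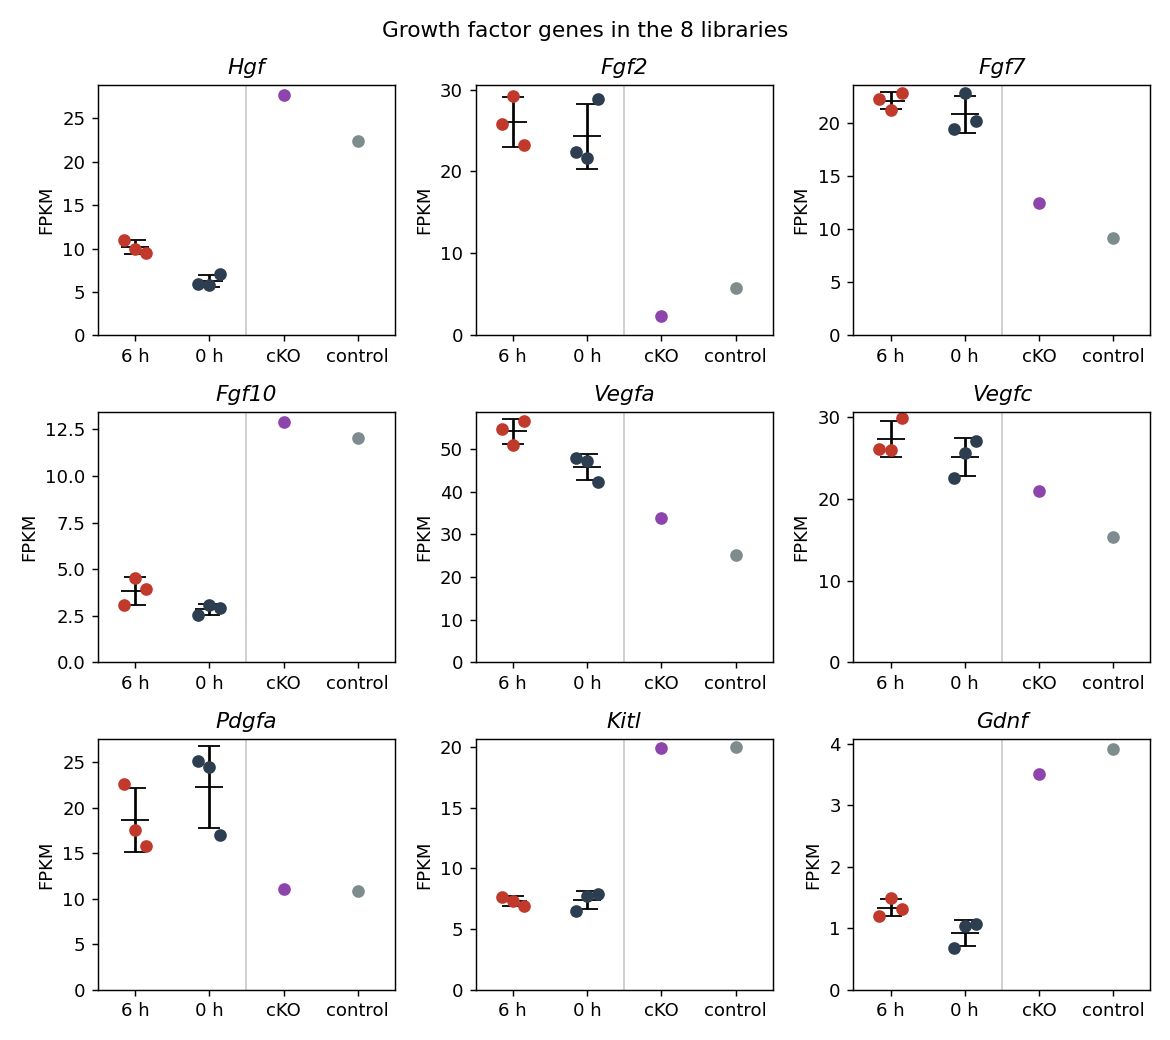
FPKM (linear axis from 0) of each growth factor gene in the 8 libraries: 6 h and 0 h of GABA and taurine (3 libraries each, points, with mean and SD as black bars), the conditional knockout (cKO) and its floxed control (1 library each). Hgf lies between 9.52 and 11.0 FPKM at 6 h and between 5.84 and 7.08 FPKM at 0 h, and Fgf2 is the gene furthest above its genotype libraries.

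Hgf encodes hepatocyte growth factor, on chromosome 5 from 16553495 to 16620152 (GRCm38, plus strand, protein-coding). It stood at 11.0, 9.93 and 9.52 FPKM in the 6 h libraries, against 5.94, 5.84 and 7.08 FPKM in the 0 h libraries. The groups did not overlap, and replicate 3 was the lowest at 6 h and the highest at 0 h. Mean levels were 10.2 ± 0.777 FPKM at 6 h and 6.28 ± 0.689 FPKM at 0 h (SD, n = 3 each), 1.62-fold higher at 6 h. The log2 difference was 0.62 (SE 0.12, 95% interval 0.36 to 0.88, limma adjusted p = 0.041), and its unadjusted p ranked 54 of 10910. The call held in 5 of 14 fits in all, with a log2 difference from 0.43 to 0.69 and an adjusted p from 0.0226 to 0.314. It was lost on leaving out any of 5 libraries, at an adjusted p of 0.207, 0.169 and 0.0729 without 6 h replicates 1, 2 and 3 and of 0.137 and 0.226 without 0 h replicates 1 and 2. Without 0 h replicate 3 it was 0.0226. Gm43489, a transcript on the same strand, shares 484 exon bases with Hgf, 6.7% of the exon bases of Hgf. Gm43489 is not listed under that name among the 24346 genes, so its level is unknown. Reads from the shared bases could come from either gene.

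**Figure D2:**
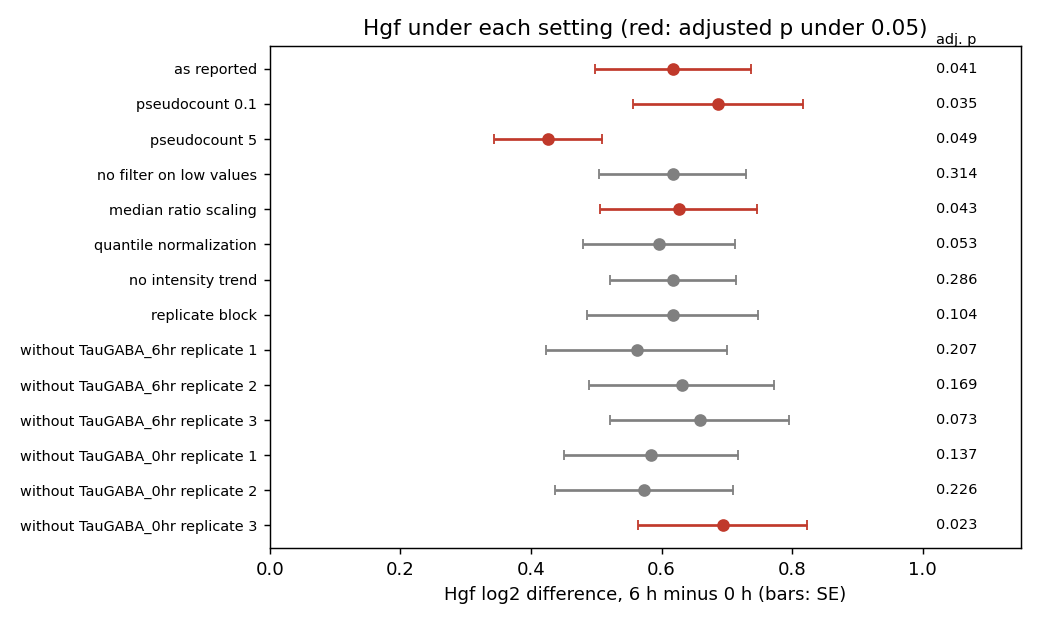
Log2 difference of Hgf at 6 h minus 0 h on the horizontal axis (points, bars show the SE) in the reported fit and under each alternative that could be fitted, with the limma adjusted p at the right and calls in red. All estimates lie between 0.43 and 0.69, while 5 of 14 have an adjusted p under 0.05.

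Markers of epithelium, with a higher sum at 6 h, and of leukocytes were low in the libraries in which Hgf rose. Those of smooth muscle had a high sum that came from part of the list. Those of PDGFRA-high mesenchyme had a higher sum at 6 h than at 0 h. The 13 epithelial markers summed to between 4.5 and 8.43 FPKM at 6 h and between 2.78 and 4.37 FPKM at 0 h. These ranges did not overlap. Krt8, an epithelial keratin and 1 of 2 of these that passed the filter, rose to 2.06 ± 0.285 FPKM at 6 h, against 0.396 ± 0.291 FPKM at 0 h (SD, n = 3 each, limma adjusted p = 0.0319). The other, Lgals4, was not called, at 1.44 FPKM at 6 h and 1.14 FPKM at 0 h with overlapping groups (limma adjusted p = 0.884). Epcam was at most 0.48 FPKM in these libraries. Sums of the 10 blood endothelial markers were 15.1 to 20.6 FPKM at 6 h and 12.8 to 17.2 FPKM at 0 h. Those of the 6 pericyte markers were 12.5 to 15.9 FPKM at 6 h and 13.3 to 16.7 FPKM at 0 h. For each of these lists the ranges overlapped between the times. The 11 leukocyte markers summed to between 3.05 and 7.48 FPKM at 6 h and between 1.34 and 10.1 FPKM at 0 h, and all 6 mast cell markers were listed at 0. The 7 smooth muscle markers summed to between 1143 and 1253 FPKM at 6 h and between 1131 and 1190 FPKM at 0 h. Most of this came from Acta2 (529.1 FPKM at 6 h and 514.7 FPKM at 0 h), Tagln (435 and 419.2 FPKM) and Smtn (188.1 and 173.9 FPKM). Des (2.42 FPKM at 6 h and 2.91 FPKM at 0 h) and Cnn1 (1.09 and 1.31 FPKM) were low. The 11 markers of PDGFRA-high subepithelial mesenchyme summed to between 1119 and 1153 FPKM at 6 h and between 961.3 and 1026 FPKM at 0 h, without overlap. Of 8 of them tested by limma, 0 were called, 7 had a positive log2 difference and 3 an unadjusted p under 0.05. The 8 markers of PDGFRA-low CD81 fibroblasts summed to between 455.9 and 495.1 FPKM at 6 h and between 434 and 470 FPKM at 0 h. Of 6 of these tested by limma, 0 were called, 5 had a positive log2 difference and 3 an unadjusted p under 0.05, with a median of 0.27. Over all 10910 genes tested, 9.38% had an unadjusted limma p under 0.05. Of these genes 5399 had a positive log2 difference, and the median was -0.0019. The part of other cell types in the rise of Hgf was not tested. In bulk RNA, a change in the share of cells and a change in RNA per cell cannot be told apart.

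Met, the receptor of Hgf, was low in these sorted cells, at 2.34, 2.59 and 3.51 FPKM at 6 h and 2.61, 2.48 and 2.67 FPKM at 0 h. Its log2 difference was 0.08 (95% interval -0.28 to 0.43, limma adjusted p = 0.925). In the genotype libraries Hgf stood at 27.7 FPKM in the conditional knockout and 22.4 FPKM in the control, a ratio of 1.24. Met stood at 1.1 FPKM in the conditional knockout and 1.57 FPKM in the control. Plat, a tissue plasminogen activator that can cleave pro-HGF, stood at 126.5 FPKM in the conditional knockout and 91.5 FPKM in the control. Spint2, an inhibitor of the proteases that activate HGF, stood at 16.5 FPKM in the conditional knockout and 6.82 FPKM in the control, a log2 ratio of 1.16. Spint2 is also made by epithelium, whose 13 markers were all higher in the conditional knockout library, with a sum of 1059 FPKM there and 112.4 FPKM in the control. Their part in the Spint2 difference was not tested.

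By the Pearson correlation of log2(FPKM + 1) over the 6 TauGABA libraries, the genes most like Hgf were Rbbp9 (r = 0.995), Serinc5 (r = 0.991) and Ifit3b (r = 0.991). None of these 3 passed the test of the time comparison, with limma adjusted p-values of 0.498, 0.742 and 0.175. For Vegfa they were Usp54 (r = 0.988), Lrrc28 (r = 0.987) and Syf2 (r = 0.987). These are the highest correlations among the 10910 genes tested, over 6 libraries that share the time groups, and are given as a description.

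Among the fibroblast growth factors, none of the 3 was called in the time comparison. Fgf2, a factor without a signal peptide on chromosome 3 from 37348346 to 37410108 (plus strand), stood at 25.8, 29.2 and 23.2 FPKM at 6 h, against 22.3, 21.7 and 28.9 FPKM at 0 h. The groups overlapped, with the 0 h replicate 3 value near the highest at 6 h. The log2 difference was 0.10 (95% interval -0.15 to 0.35, limma adjusted p = 0.844).

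In the genotype libraries Fgf2 stood at 2.3 FPKM in the conditional knockout and 5.77 FPKM in the control, 39.9% of the control level and a log2 ratio of -1.04. This ratio of 0.399 was shared, within a relative tolerance of 0.0005, by 430 other genes, out of 494 genes within 5% of it. The 430 genes had a median of 0.634 FPKM in the control. The most widely shared ratio in these 2 libraries was 0.798, held by 951 genes, which is 2-fold that of Fgf2. The number of reads behind Fgf2 is unknown.

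Nudt6, an enzyme gene on the minus strand of chromosome 3 from 37404910 to 37420211, overlaps Fgf2 in antisense direction, with 640 exon bases in common (9.4% of those of Fgf2 and 38.2% of those of Nudt6). The library kit does not mark strand, so reads from these bases cannot be told apart. Nudt6 also shares 316 exon bases with Spata5 on the opposite strand. Nudt6 stood at 25.6, 25.2 and 22.5 FPKM at 6 h and at 23.1, 27.6 and 28.3 FPKM at 0 h. In the conditional knockout library it stood at 6 FPKM and in the control at 7.52 FPKM, a ratio of 0.798, which is also the most widely shared one. Fgf2 and Nudt6 were thus both higher in each of the 6 TauGABA libraries than in either genotype library.

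Fgf7, or keratinocyte growth factor, on chromosome 2 from 126034658 to 126091185, stood at 22.3, 21.2 and 22.8 FPKM at 6 h, against 19.5, 22.8 and 20.2 FPKM at 0 h. These groups overlapped, with a log2 difference of 0.08 (95% interval -0.11 to 0.27, limma adjusted p = 0.83). In the conditional knockout library Fgf7 stood at 12.5 FPKM and in the control at 9.18 FPKM. Fgf10, on chromosome 13 from 118669791 to 118792115, stood at 3.06, 4.51 and 3.95 FPKM at 6 h, against 2.53, 3.08 and 2.93 FPKM at 0 h. The lowest 6 h value lay just under the highest 0 h value, and the log2 difference was 0.32 (95% interval -0.02 to 0.67, limma adjusted p = 0.578). In the genotype libraries Fgf10 stood at 12.9 FPKM in the conditional knockout and 12.0 FPKM in the control.

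The balance of these related ligands differed between the library sets, in which 42.3% of 12043 genes were at least 2-fold apart. Fgf7 was 4.71 to 7.69 times the level of Fgf10 in the 6 TauGABA libraries, and 0.966 and 0.763 times its level in the conditional knockout and control libraries. A ratio within a library does not change when the whole library is multiplied by a factor, but other differences between the sets can change it. How often the ratio of other gene pairs shifts as much was not tested. Fgfr2, whose epithelial splice form is their receptor, stood between 2.81 and 3.93 FPKM in the TauGABA libraries. It stood at 18.5 FPKM in the conditional knockout and 19.4 FPKM in the control. These values are per gene and do not separate its splice forms. Fgfr1 was the second highest of the 16 receptors in each library after Pdgfra. It stood at 163, 157 and 161.6 FPKM at 6 h and 140.6, 146.6 and 140.7 FPKM at 0 h (log2 difference 0.17, 95% interval 0.06 to 0.28, limma adjusted p = 0.267). Fgfr4 was at most 0.208 FPKM in the TauGABA libraries.

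Vegfa, on chromosome 17 from 46016993 to 46032369 (minus strand), had the highest level of the 9 factors in every library. It stood at 54.8, 50.9 and 56.7 FPKM at 6 h, against 47.9, 47.3 and 42.4 FPKM at 0 h. All 6 h values lay above all 0 h values, at a mean of 54.1 ± 2.94 FPKM at 6 h and 45.9 ± 3.04 FPKM at 0 h (SD, n = 3 each). The log2 difference of 0.23 (SE 0.07, 95% interval 0.08 to 0.39) had an unadjusted limma p of 0.00698, but the adjusted p over all genes was 0.296, so Vegfa was not called. In the genotype libraries it stood at 33.8 FPKM in the conditional knockout and 25.1 FPKM in the control.

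Vegfc, on chromosome 8 from 54077606 to 54187096, stood at 26.1, 26.0 and 29.9 FPKM at 6 h, against 22.6, 25.6 and 27.1 FPKM at 0 h. These groups overlapped (log2 difference 0.12, 95% interval -0.08 to 0.32, limma adjusted p = 0.741). The conditional knockout library had 20.95 FPKM of Vegfc and the control 15.3 FPKM, a ratio of 1.37. The endothelial receptors were low: Kdr stood between 0.414 and 1.65 FPKM and Flt4 at no more than 0.432 FPKM in the TauGABA libraries. Flt1 was the highest of these in the TauGABA libraries, between 3.2 and 3.98 FPKM, against 1.93 FPKM in the conditional knockout and 3.62 FPKM in the control, so the sets overlapped. Kdr was at 1.78 FPKM in the conditional knockout and 4.57 FPKM in the control, 38.9% of the control level. The 10 blood endothelial markers, Kdr among them, summed to 43.1 FPKM in the conditional knockout and 68.1 FPKM in the control, and their part in this difference was not tested. The co-receptors Nrp1 and Nrp2, which also bind semaphorins, were expressed more highly than Kdr, between 11.4 and 23.6 FPKM in the TauGABA libraries.

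Pdgfa, on chromosome 5 from 138976014 to 138997370 (minus strand), stood at 22.6, 17.5 and 15.8 FPKM at 6 h, against 25.2, 24.4 and 17.0 FPKM at 0 h. The groups overlapped, with replicate 3 the lowest at both times. The log2 difference was -0.23 (95% interval -0.56 to 0.09, limma adjusted p = 0.681). Pdgfa was close in the genotype libraries, at 11.0 FPKM in the conditional knockout and 10.8 FPKM in the control. Exons of the antisense gene 6330403L08Rik share 813 bases with Pdgfa, which is 26.1% of its exon bases. Pdgfra, the receptor of Pdgfa and part of the sorting gate, stood at 217.9 ± 9.89 FPKM at 6 h and 176.8 ± 22.1 FPKM at 0 h (SD, n = 3 each, limma adjusted p = 0.15). Pdgfrb, which binds mainly other PDGF chains, stood at 39.7 ± 2.67 FPKM at 6 h and 33.8 ± 0.635 FPKM at 0 h (SD, n = 3 each, limma adjusted p = 0.321).

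Kitl, or stem cell factor, on chromosome 10 from 100015630 to 100100416, had the smallest log2 difference of the 9 factors between the times. It stood at 7.66, 7.34 and 6.87 FPKM at 6 h, against 6.5, 7.71 and 7.85 FPKM at 0 h. The groups overlapped, with a log2 difference of -0.0083 (95% interval -0.27 to 0.25, limma adjusted p = 0.989) whose sign turned under scaling by median ratios. The genotype libraries were as close, at 19.9 FPKM in the conditional knockout and 20 FPKM in the control. Kit, its receptor, was at most 0.233 FPKM in the TauGABA libraries and was 1.37 FPKM in the conditional knockout and 1.2 FPKM in the control.

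Gdnf, on chromosome 15 from 7810846 to 7837575, was the lowest of the 9 factors in every library but the conditional knockout, in which Fgf2 was lower. It stood at 1.2, 1.49 and 1.32 FPKM at 6 h, against 0.684, 1.03 and 1.07 FPKM at 0 h. All 6 h values lay above all 0 h values, but the log2 difference of 0.28 (95% interval -0.11 to 0.67, limma adjusted p = 0.684) was not called. In the genotype libraries Gdnf stood at 3.52 FPKM in the conditional knockout and 3.92 FPKM in the control. Ret, the signalling receptor of Gdnf, stood at 5.89, 5.83 and 5.81 FPKM at 6 h and 5.96, 4.95 and 8.12 FPKM at 0 h. In the conditional knockout it was at 0.406 FPKM and in the control at 1.22 FPKM.

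**Figure D3:**
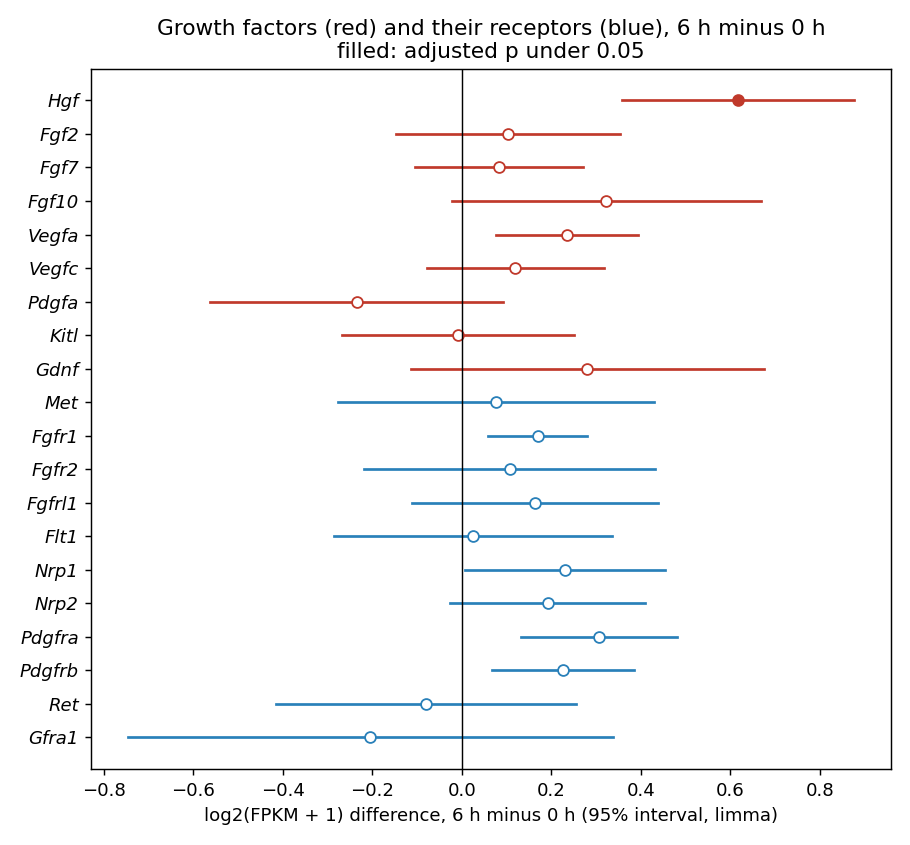
Log2(FPKM + 1) difference at 6 h minus 0 h (points) with 95% limma intervals (lines) for the 9 growth factors (red) and the 11 of 16 receptors that passed the filter (blue). Hgf at 0.62 is the 1 filled point, with an adjusted p under 0.05, and the interval of Vegfa, from 0.08 to 0.39, lies above 0 without an adjusted call.

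The wider pathway was described from 6 further lists, and none of their tested members was called in the time comparison by limma. Of 11 receptors tested 0 were called and 4 had an unadjusted p under 0.05, with a median log2 difference of 0.16. Of 10 other ligands of these families 0 were called and 0 had an unadjusted p under 0.05, with a median of 0.09. Csf1, the macrophage growth factor whose protein structure resembles that of Kitl, was at 1087, 1079 and 1053 FPKM at 6 h and 981.3, 1069 and 1066 FPKM at 0 h. Of 7 genes of ligand processing 0 were called and 1, the proprotein convertase Furin (34.0 FPKM at 6 h and 45.5 FPKM at 0 h, limma adjusted p = 0.273), had an unadjusted p under 0.05.

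Of 18 heparan sulfate genes and co-receptors, which hold FGFs at the cell surface, 0 were called in the time comparison by limma and 4 had an unadjusted p under 0.05. Ext1, a polymerase of heparan sulfate, was at 67.8 FPKM at 6 h and 93.8 FPKM at 0 h, with the groups not overlapping (log2 difference -0.46, limma adjusted p = 0.0796). Of 9 ERK feedback targets, which growth factor receptors induce, 0 were called by limma and 4 had an unadjusted p under 0.05, 3 with a negative and 1 with a positive log2 difference. Spry1, a feedback inhibitor of receptor signalling, had the most negative difference, at 24.2 FPKM at 6 h and 35.6 FPKM at 0 h (log2 difference -0.50, limma adjusted p = 0.282). Spred1, an inhibitor of Ras-ERK signalling, was at 45.2 FPKM at 6 h and 56.5 FPKM at 0 h (log2 difference -0.32, limma adjusted p = 0.0963). Dusp4, a phosphatase that acts on ERK, was at 8.22 FPKM at 6 h and 10.3 FPKM at 0 h (log2 difference -0.29, limma adjusted p = 0.439). Spry2, a relative of Spry1 and the 1 with a positive difference, was at 17.4 FPKM at 6 h and 14.5 FPKM at 0 h (log2 difference 0.25, limma adjusted p = 0.479). Of 12 hypoxia genes, a class to which Vegfa belongs, 0 were called and 1 had an unadjusted p under 0.05, with a median of -0.06. Over all 10910 genes, 9.38% had an unadjusted p under 0.05.

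In the genotype comparison, 55% of 14949 genes were higher in the conditional knockout library. Of the lists, 10 of 14 measured receptors, 8 of 14 other ligands and 9 of 10 processing genes were higher there. So were 16 of 20 heparan sulfate genes, 9 of 11 ERK feedback targets and 7 of 12 hypoxia genes. The median log2 ratios of these lists were 0.10, 0.08, 0.44, 0.17, 0.20 and 0.11 in that order, against 0.09 for the 9 factors and 0.04 over all genes measured. The median over all genes was 0.089 with a filter at 10 FPKM and -0.045 after scaling by median ratios. Epithelial markers were also higher in the conditional knockout library, and their part in these list values was not tested. Kdr and Spint2 were the genes of these lists past 2-fold. Among ERK feedback targets Spry1 stood at 233 FPKM in the conditional knockout and 184.7 FPKM in the control, and Dusp6 at 54.2 FPKM in the conditional knockout and 43.2 FPKM in the control.

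**Figure D4:**
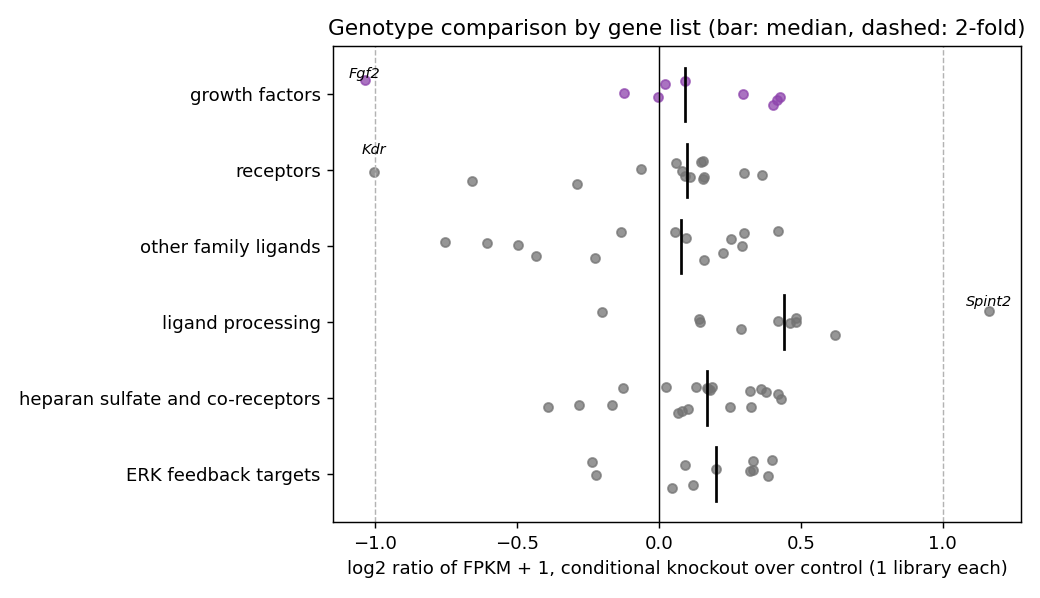
Log2 ratio of FPKM + 1, conditional knockout over control (horizontal axis, 1 library each), for the growth factors (purple) and 5 further gene lists (grey, vertical positions spread at random within a list), with the list median as a black bar and 2-fold as dashed lines. Fgf2 at -1.04, Kdr just past the lower line and Spint2 at 1.16 are the genes past 2-fold.

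The levels of the 9 factors were then set side by side between the TauGABA and the genotype libraries. These sets may have been normalised separately and differ in treatment, genotype and possibly in handling, so no test was made and these cannot be told apart. Of the 9 factors 5 were at least 2-fold apart, where 42.3% of 12043 genes were. Fgf2 was higher in the TauGABA set by 2.46 on the log2(FPKM + 1) scale, and 19.9% of genes were at least 2-fold higher there. Hgf (-1.53), Fgf10 (-1.65), Kitl (-1.33) and Gdnf (-1.15) were lower there, and 22.4% of genes were at least 2-fold lower. Fgf7 (0.94), Pdgfa (0.82), Vegfa (0.75) and Vegfc (0.52) were higher by less than 2-fold.

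All 9 factors had 6 TauGABA values beyond both genotype values, 5 above, as 41.3% of genes did, and 4 below, as 37.8% of genes did. A majority of all genes thus separated the sets, so this separation is not a result about the growth factors. The median of all genes was 0.05 as deposited, -0.42 after scaling by median ratios and 0.18 after quantile normalization over the 8 libraries. Vegfc then stood at 0.0046 after median ratio scaling, above the median of all genes. Gdnf stood at -0.41 after quantile normalization and was no longer 2-fold apart.

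Within each library the order of the factors differed between the sets. In the TauGABA libraries, Vegfa (42.4 to 56.7 FPKM) was above Vegfc, Fgf2, Fgf7 and Pdgfa, whose ranges overlapped between 15.8 and 29.9 FPKM. Hgf and Kitl came next with overlapping ranges, from 5.84 to 11.0 FPKM together, then Fgf10 (2.53 to 4.51 FPKM) and Gdnf (0.684 to 1.49 FPKM). In the genotype libraries Hgf was second to Vegfa. By rank among all 24346 genes, with 1 the highest, Hgf was at 3049 in the conditional knockout and 3471 in the control library, and between 6073 and 7629 in the TauGABA libraries. Fgf2 was at rank 11480 in the conditional knockout and 8443 in the control, and between 3434 and 4214 in the TauGABA libraries.

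**Figure D5:**
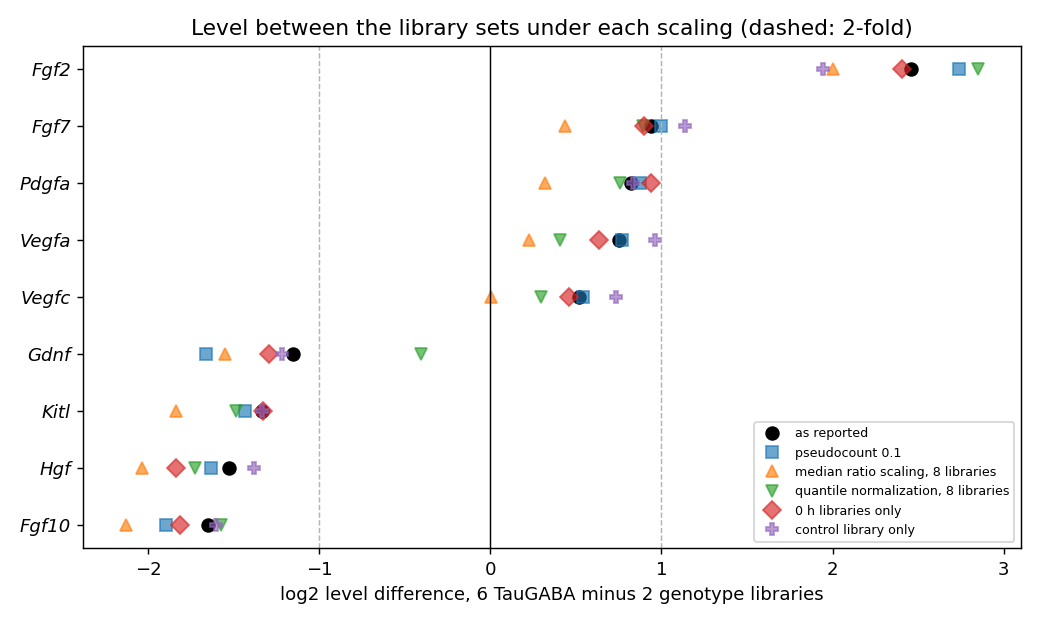
Difference in log2(FPKM + 1) level of each growth factor, 6 TauGABA minus 2 genotype libraries (horizontal axis), as reported (black circles) and under 5 alternatives (other symbols), with 2-fold as dashed lines. Fgf2 stays between 1.94 and 2.85, while Hgf, Fgf10, Kitl and Gdnf stay below 0 under each of them.

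Of 12 other ligands of these families measured, 2 were at least 2-fold higher in the TauGABA set and 6 lower, against 19.9% and 22.4% of all genes. Their TauGABA values lay above both genotype values for 3 and below them for 8, against 41.3% and 37.8% of all genes. Those named here were chosen after their values were seen. Csf1 stood at 981.3 to 1087 FPKM in the TauGABA libraries, against 94.0 FPKM in the conditional knockout and 84.1 FPKM in the control. Fgf9 was at most 0.864 FPKM in the TauGABA libraries, against 18.2 FPKM in the conditional knockout and 15.1 FPKM in the control. The levels of Pdgfd lay apart in the same direction, at most 0.442 FPKM in the TauGABA libraries against 20.3 FPKM in the conditional knockout and 18.9 FPKM in the control. Figf, the gene of Vegfd, was at most 2.54 FPKM in the TauGABA libraries, against 17.8 FPKM in the conditional knockout and 14.4 FPKM in the control. Fgf18, by contrast, was between 7.12 and 9.6 FPKM in the TauGABA libraries, against 2.27 FPKM in the conditional knockout and 1.79 FPKM in the control.

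Markers of identity and of other cells differed between the sets too, where 41.3% of all genes lay above both genotype values and 37.8% below. Foxl1 was between 0.109 and 0.289 FPKM in the TauGABA libraries, against 11.6 FPKM in the conditional knockout and 10.2 FPKM in the control. Pdgfra of the gate was between 152.3 and 227.3 FPKM in the TauGABA libraries, against 225.7 FPKM in the conditional knockout and 201.8 FPKM in the control. Pdpn, also of the gate, was between 280.7 and 303.7 FPKM in the TauGABA libraries and at 91.7 FPKM in the lower of the genotype libraries. Of the 11 markers of PDGFRA-high mesenchyme, 1 was at least 2-fold higher in the TauGABA set and 8 were lower. Of all genes, 19.9% were at least 2-fold higher in that set and 22.4% at least 2-fold lower. Ly6c1, of the Ly6C family that the gate was to exclude, was between 8.76 and 12.4 FPKM in the TauGABA libraries, against 89.6 FPKM in the conditional knockout and 140.9 FPKM in the control. The leukocyte markers summed to no more than 10.1 FPKM in the TauGABA libraries, against 263.8 FPKM in the conditional knockout and 221.8 FPKM in the control. The 8 markers of PDGFRA-low CD81 fibroblasts summed to between 434 and 495.1 FPKM in the TauGABA libraries, against 1605 FPKM in the conditional knockout and 1560 FPKM in the control. The 11 PDGFRA-high markers summed to between 961.3 and 1153 FPKM in the TauGABA libraries, against 1767 FPKM in the conditional knockout and 1641 FPKM in the control. The sum of the 7 smooth muscle markers went the other way, at 1131 to 1253 FPKM against 815.9 and 679.5 FPKM. Of these 7, 2 were at least 2-fold higher in the TauGABA set and 2 lower, against 19.9% and 22.4% of all genes. The part of all these markers in the levels of the growth factors was not tested. Cxcl12, the deleted gene, stood at 739.7 FPKM in the conditional knockout and 1298 FPKM in the control, 57% of the control level.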

How the data were processed

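Per the labels' protocols, RNA came from the miRNeasy Micro Kit, cDNA from SMART-Seq HT and libraries from Nextera XT. For every library the authors deposited gene symbols with FPKM values, per the file headers. Cuffdiff 2.2.1, TopHat2 2.1.1, SAMtools 0.1.18 and Bowtie2 2.2.8 are named, with mm10 as build, in the submitters' processing notes. Neither an annotation nor a scaling between libraries is named there. Read depth is unknown. Total FPKM ran from 513001 to 579004 and 14818 to 21006 of the 24346 genes were above 0.

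Groups were taken from the labels. The time comparison used limma 3.58.1 (R 4.3.3) on log2(FPKM + 1), with an intensity trend, over genes averaging 1 FPKM or more, and p-values were adjusted by Benjamini-Hochberg over all of them. On this scale low genes show too small a change. An exact permutation test of 3 against 3 libraries cannot go below 0.1, so none was used. Genotype and library-set differences are log2 values of FPKM + 1 with no test. Named genes were the 9 factors, list genes past the threshold or 2-fold, receptors, up to 4 further genes of a list by smallest p, and the 3 genes most correlated with a called factor or that of highest level. Names outside this rule (Krt8 and the other markers, Gm43489, Spata5 and 6330403L08Rik, the other ligands set beside the library sets, Plat and Dusp6) were chosen after their values were seen. The factors and lists were chosen with earlier results of these data known. Gene coordinates are from GENCODE M21 (GRCm38), start sites and sequences from RefSeq, where all 9 factors matched.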

Additional observations from a re-analysis of the deposited data

How the results depend on the processing

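The rise of Hgf kept its direction in all fits, but the count of 1 factor called higher became 0 with no filter on low values, with a filter at 10 FPKM (which leaves Hgf out), with quantile normalization, with no intensity trend and with the replicate block, and ran from 0 to 1 with 1 library left out. No factor was called lower in any fit. Over all genes, 26 calls higher and 34 lower became 0 and 0 with no filter and with no intensity trend, and ran from 0 to 47 higher and from 2 to 68 lower with 1 library left out. The cause of these shifts was not tested. With the replicate block they were 14 and 9, and Hgf had an adjusted p of 0.104 in limma. Same-numbered libraries did not deviate together (correlations of -0.04, 0.01 and -0.03), so the numbers were not taken as pairs. Kitl, at -0.0083, changed sign to 0.00061 with median ratio scaling and lay between -0.0842 and 0.0357 with 1 library left out. In the genotype comparison, 204 genes 2-fold higher and 332 lower became 384 and 766 with a pseudocount of 0.1, 58 and 42 with a pseudocount of 5, and 44 and 33 with a filter at 10 FPKM. The 1 factor 2-fold lower, Fgf2, became 0 with a pseudocount of 5 and with a filter at 10 FPKM. The number of factors 2-fold apart between the library sets ran from 4 to 6 over the 5 alternatives. FPKM without read numbers set the limit for low genes such as Gdnf.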
